A study of Mus musculus with 16 samples.

Results

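The genes described here are 10 components of the NF-kB system. The subunit genes are Nfkb1, Nfkb2, Rel, Rela and Relb. The others, Nfkbia, Nfkbie, Nfkbiz, Tnfaip3 and Bcl3, encode inhibitors or related nuclear regulators. The 10 genes were chosen by name, with earlier results of these data known. On the array they were found by gene symbol among the probes other than controls, with the brightest probe taken for a gene. All 10 were among the 24278 genes tested, and each was well above background on all 16 arrays. Macrophages had been isolated by flow sorting out of tumors or healthy tissue of the pancreas from female C57/B6 mice aged 8 to 10 weeks, and each sample was hybridised to a one-color Agilent array. Tumors gave 5 YFP+ and 5 YFP- arrays, and normal pancreas gave 3 YFP+ and 3 YFP- arrays, which makes 4 groups. YFP comes from a reporter that a Cre recombinase under Flt3, a receptor gene of blood progenitors, switches on permanently, so YFP+ cells have a history of Flt3 expression. The design text lists mice that were wild-type, KPC (which develop pancreatic cancer through engineered alleles) or FLT3-CRE/LSL-YFP, while the treatment text speaks of implanted tumors. No genotype is given per sample, so which tumor model the arrays come from is not settled. Nothing in the labels says which samples share a mouse, although the same title numbers occur in the YFP+ and YFP- groups of a tissue.

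NF-kB factors are dimers of Rel family proteins that bind kappa B sites in DNA. In resting cells inhibitor proteins of the IkB family hold them in the cytoplasm. Toll-like, cytokine and antigen receptors activate the IKK kinases, which mark these inhibitors for destruction, and the freed dimers switch on inflammatory genes in macrophages. Several of the genes they switch on encode their own inhibitors and subunits, which gives the system its feedback. A slower branch, started by receptors such as the lymphotoxin beta receptor and the B cell survival receptor Tnfrsf13c, processes the precursor encoded by Nfkb2 and acts through Relb.

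Values are log2 processed signal minus the 75th percentile of the array, so that 0 is that percentile, and levels are compared only within a probe. Across arrays 64.9% to 75.4% of spots reached the well-above-background flag, 0 were saturated, and the number of arrays limits the precision. The sorted samples expressed macrophage markers, with all 15 of the list (among them Csf1r, the receptor for the growth factor CSF1, and Adgre1) well above background on every array. Their summed signal, in multiples of the 75th percentile, lay within 391 to 494 on tumor YFP+ arrays and 371 to 531 on tumor YFP- arrays. On normal YFP+ arrays it lay within 424 to 519, and on normal YFP- arrays within 378 to 661. Markers of other cell types were present as well and are given beside the results. In such bulk samples fewer cells of a type and less RNA per cell cannot be told apart. Tests are limma's, two-sided, with p-values adjusted by Benjamini-Hochberg for the 24278 genes tested and called below 0.05. P-values set each difference against the spread between these samples, which are not stated to come from separate mice.

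Promoter sequences are shown because the system acts back on its own genes, and because Rel, Nfkbie, Tnfaip3 and Bcl3, described below, moved together between tissues. RefSeq windows of 300 bases (250 before the start site and 50 after it, build GRCm38.p6) were at hand for 7 of the 10 genes, in 10 windows. For 5 of the genes, 160 bases from 140 before the start site to 20 after it are printed 5′ to 3′ on the gene's strand, with matches to the kappa B consensus on either strand in capitals. The windows are chr11:23770950-23771109 for Rel (minus strand), chr17:45555560-45555719 for Nfkbie (plus strand), chr10:19015391-19015550 for Tnfaip3 (minus strand), chr7:19822736-19822895 for Bcl3 (minus strand) and chr19:46304597-46304756 for Nfkb2 (plus strand).
Rel: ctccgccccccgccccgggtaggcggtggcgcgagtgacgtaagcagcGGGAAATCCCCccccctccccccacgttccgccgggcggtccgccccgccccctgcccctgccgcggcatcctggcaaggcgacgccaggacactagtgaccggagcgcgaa
Nfkbie: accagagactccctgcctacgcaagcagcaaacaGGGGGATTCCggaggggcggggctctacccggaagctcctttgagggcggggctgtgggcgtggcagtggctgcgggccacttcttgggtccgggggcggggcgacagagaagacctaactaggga
Tnfaip3: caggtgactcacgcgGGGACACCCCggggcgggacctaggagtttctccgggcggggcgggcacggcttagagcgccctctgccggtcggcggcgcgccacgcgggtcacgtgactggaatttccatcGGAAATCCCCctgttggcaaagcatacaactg
Bcl3: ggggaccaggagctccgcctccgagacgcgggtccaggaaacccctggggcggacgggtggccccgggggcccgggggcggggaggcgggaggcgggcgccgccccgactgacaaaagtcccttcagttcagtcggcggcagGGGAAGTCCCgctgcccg
Nfkb2: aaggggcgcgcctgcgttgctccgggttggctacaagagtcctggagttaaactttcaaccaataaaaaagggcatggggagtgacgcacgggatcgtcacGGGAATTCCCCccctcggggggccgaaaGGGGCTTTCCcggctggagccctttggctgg
The consensus was searched on both strands with overlapping matches counted. It occurred in 8 of the 10 member windows, against 4.51% of all 32851 promoter windows of that length. By gene it occurred in 6 of the 7 members with a window, against 5.14% of all 27025 genes. Rela had no match. Of the matches in Tnfaip3, the one nearest the start site began 12 bases before it. In Nfkbia, the gene of the main cytoplasmic inhibitor, the match began 29 bases before it. Nearer matches began 2 bases after the start site in Bcl3 and 11 bases before it in the first window of Nfkb2. Nfkb2 had matches in all 3 of its windows, and the match 10 bases after the start site of the second window and the one 225 bases before the start of the third are the same site. This consensus was picked from 7 patterns after their matches in the member windows had been seen, so its count supports nothing. The 7 patterns occurred in 0.411% to 50.8% of all windows and in 2 to 7 of the 7 member genes. The form with the fewest matches overall occurred in 2 of the 7 genes. A match is a run of letters and was not tested as a binding site.

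**Figure D1:**
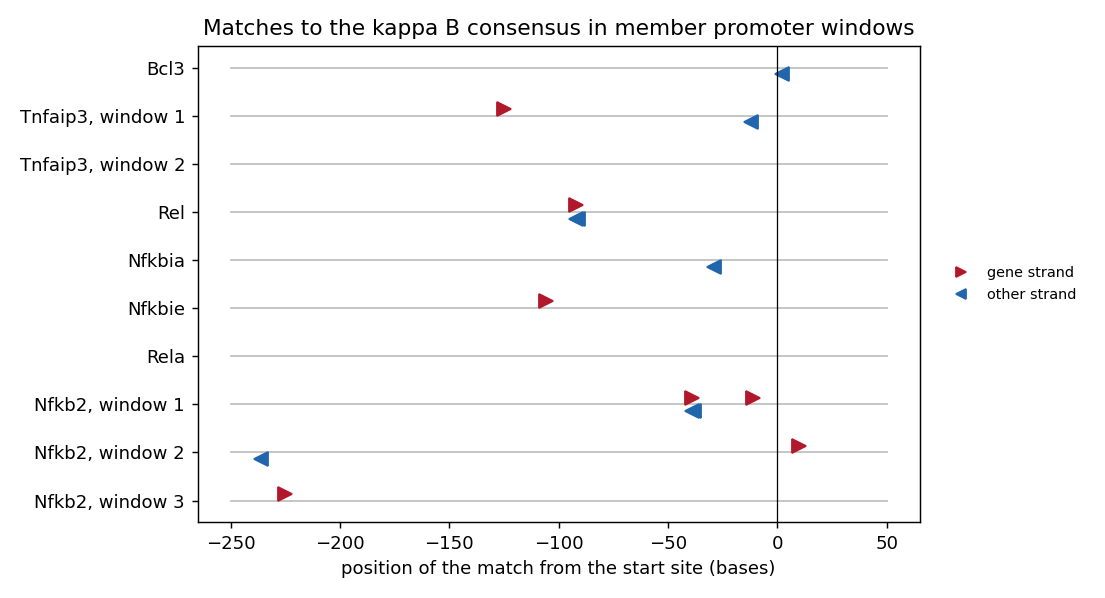
Position of matches to the kappa B consensus in the 10 promoter windows of 7 members, in bases from the start site (vertical line at 0), with right-pointing red triangles for the gene strand and left-pointing blue triangles for the other strand. Grey lines are the windows, and 8 of the 10 hold a match.

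Between tissues, 4 members were higher in tumor than in normal pancreas in both populations: Rel, Nfkbie, Tnfaip3 and Bcl3. Nfkb2 passed the test in YFP+ cells only, although its difference in YFP- cells had the same sign and the interaction, which tests the difference between populations, did not pass. Nfkb1, Rela, Relb, Nfkbia and Nfkbiz passed in neither population. In YFP+ cells 5 of the 10 members were called, all higher, where 12.1% of all genes were called (6.03% higher and 6.06% lower). In YFP- cells 4 of 10 were called, all higher, where 15.8% of all genes were called (8.03% higher and 7.74% lower). The median difference of the 10 members was 0.40 in YFP+ and 0.44 in YFP- cells, beside -0.045 and -0.16 over all genes. Since the members were chosen with earlier results of these data known, these shares and medians are descriptions. Groups that do not overlap, described below for some members, are given without the share over all genes.

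**Figure D2:**
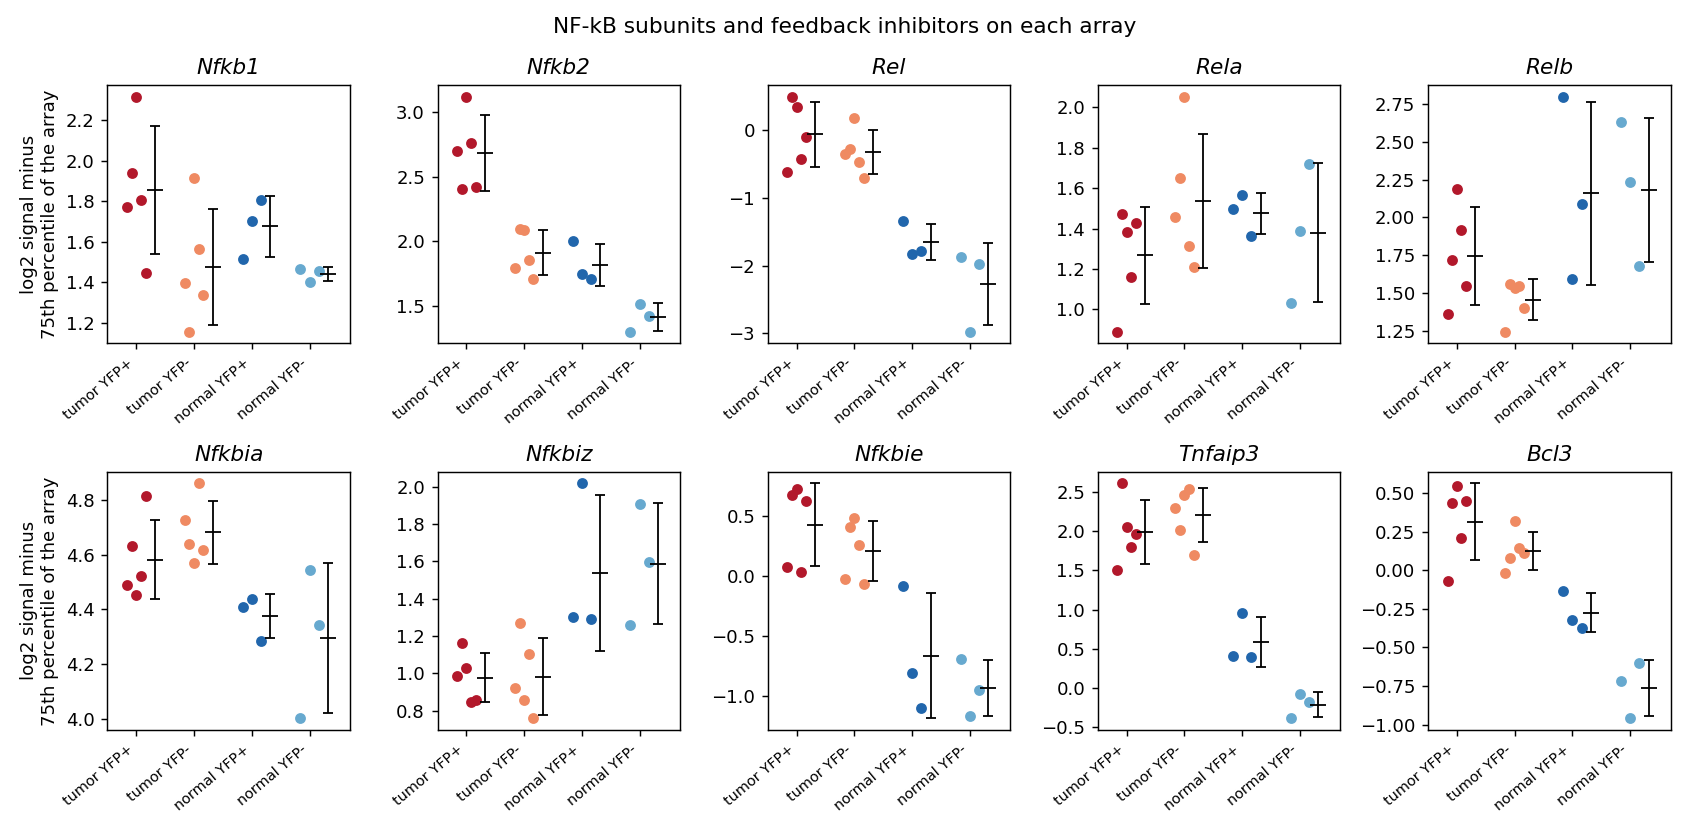
Log2 signal minus the 75th percentile of the array (y axis, a scale of its own for each gene) for the 10 members, with a point for each array (tumor YFP+ and YFP- on the left, 5 each, then normal YFP+ and YFP-, 3 each), and the mean with SD beside the points. For Rel, Nfkbie, Tnfaip3 and Bcl3 every tumor array lies above every normal array of either population.

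Rel encodes the subunit c-Rel, which is most abundant in lymphoid and myeloid cells. It measured -0.61, 0.50, 0.34, -0.43 and -0.095 in tumor YFP+ samples, against -1.35, -1.83 and -1.78 in normal YFP+ samples. In tumor YFP- samples it measured -0.35, -0.27, 0.18, -0.47 and -0.70, against -1.87, -2.98 and -1.97 in normal YFP- samples. Every tumor array was above every normal array. The difference was 1.60 ± 0.31 (SE) on the log2 scale in YFP+ cells, a 3.03-fold higher level (limma adjusted p = 0.00284), and 1.95 ± 0.31 in YFP- cells, 3.87-fold (adjusted p = 5.61e-04). Within the 3 slides that held both groups, the differences were 1.25 to 2.33 and 1.17 to 2.62.

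Tnfaip3 encodes a ubiquitin-editing enzyme that shuts down signalling upstream of IKK. Its values were 1.51, 2.61, 2.06, 1.81 and 1.97 in tumor YFP+ samples, against 0.41, 0.95 and 0.39 in normal YFP+ samples. They were 2.30, 2.02, 2.46, 2.55 and 1.70 in tumor YFP- samples, against -0.39, -0.081 and -0.18 in normal YFP- samples. Tumor arrays of both populations overlapped one another, and all were above the normal arrays. The difference was 1.41 ± 0.25 in YFP+ cells (2.65-fold, limma adjusted p = 0.00170) and 2.42 ± 0.25 in YFP- cells (5.36-fold, adjusted p = 1.57e-05). The fold in YFP- cells was the largest of the 10 members in either tissue comparison.

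Nfkbie encodes IkB epsilon, an inhibitor that binds c-Rel and RelA dimers. It measured 0.077, 0.68, 0.73, 0.032 and 0.63 in tumor YFP+ samples, against -0.085, -0.81 and -1.10 in normal YFP+ samples. In tumor YFP- samples it measured -0.023, 0.41, 0.49, 0.26 and -0.069, against -0.69, -1.16 and -0.95 in normal YFP- samples. Within each population the groups did not overlap, and 1 normal YFP+ array lay close to the lowest tumor YFP+ arrays. The difference was 1.09 ± 0.25 in YFP+ cells (2.13-fold, limma adjusted p = 0.00977) and 1.15 ± 0.25 in YFP- cells (2.22-fold, adjusted p = 0.00610). Without number 23916 the call was lost in both populations (adjusted p = 0.0612 in YFP+ and 0.0524 in YFP- cells), and without 23917 in YFP+ cells (0.0876).

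Bcl3 encodes a nuclear IkB-like protein that binds p50 and p52 dimers on DNA. It measured -0.070, 0.44, 0.55, 0.21 and 0.45 in tumor YFP+ samples, against -0.13, -0.32 and -0.37 in normal YFP+ samples. In tumor YFP- samples it measured -0.020, 0.082, 0.32, 0.15 and 0.11, against -0.72, -0.96 and -0.60 in normal YFP- samples. The groups did not overlap, and tumor and normal values lay farther apart in the YFP- samples. The difference was 0.59 ± 0.16 in YFP+ cells (1.51-fold, limma adjusted p = 0.0298) and 0.89 ± 0.16 in YFP- cells (1.85-fold, adjusted p = 0.00198). The call in YFP+ cells was lost in 7 of 18 alternative fits, namely with only the groups compared and without 23548, 23550, 23551, 23677, 23916 or 23917, with an adjusted p of 0.0572 to 0.130, while the call in YFP- cells held in all 18.

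Nfkb2 encodes the precursor of the subunit p52, which also acts as an inhibitor before it is processed. Its array probe, with no position in the file, is shown because it measures the single member called within tumors.
Nfkb2 probe: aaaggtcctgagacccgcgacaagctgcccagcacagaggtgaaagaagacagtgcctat
It measured 2.70, 2.40, 3.12, 2.76 and 2.42 on the tumor YFP+ arrays, against 1.80, 2.09, 2.09, 1.86 and 1.71 on the tumor YFP- arrays. On the normal YFP+ arrays it measured 2.003, 1.75 and 1.71, against 1.30, 1.52 and 1.42 for YFP- cells of the same tissue. All tumor YFP+ arrays were above all others. Tumor exceeded normal by 0.86 ± 0.18 in YFP+ cells (1.82-fold, limma adjusted p = 0.00498), and by 0.50 ± 0.18 in YFP- cells, which did not pass (adjusted p = 0.0767).

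The other 5 members did not pass the test between tissues. Nfkbia averaged 4.58 ± 0.15 (SD, n = 5) on tumor YFP+ arrays against 4.38 ± 0.081 (n = 3) on normal YFP+ arrays. On YFP- arrays it averaged 4.68 ± 0.11 (n = 5) for tumor against 4.30 ± 0.27 (n = 3) for normal pancreas. Within each population all tumor arrays of Nfkbia were above the normal arrays. Its differences were 0.20 (95% interval -0.12 to 0.53) in YFP+ and 0.38 (0.059 to 0.71) in YFP- cells, with limma adjusted p = 0.481 and 0.105. Rela, the subunit of the main activating dimer, differed by -0.21 (-0.67 to 0.25) and 0.16 (-0.31 to 0.62). Nfkb1, which encodes the p50 precursor, differed by 0.18 (-0.25 to 0.61) and 0.035 (-0.40 to 0.47).

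Relb and Nfkbiz had lower means in tumor in both populations, without passing the test. Nfkbiz, which encodes the nuclear co-activator IkB zeta, averaged 0.98 ± 0.13 in tumor YFP+ against 1.54 ± 0.42 in normal YFP+ samples, and 0.98 ± 0.20 in tumor YFP- against 1.59 ± 0.32 in normal YFP- samples. The differences were -0.56 ± 0.20 (limma adjusted p = 0.0944) and -0.61 ± 0.20 (adjusted p = 0.0581), and the second passed in 7 of 18 alternative fits, among them the one without 23912 (adjusted p = 0.0317). Relb averaged 1.75 ± 0.32 in tumor YFP+ against 2.16 ± 0.61 in normal YFP+ samples, and 1.46 ± 0.13 in tumor YFP- against 2.18 ± 0.48 in normal YFP- samples. Its differences were -0.41 ± 0.27 (adjusted p = 0.411) and -0.72 ± 0.27 (adjusted p = 0.0885). The second probe of Relb gave -0.12 and -0.46, and that of Nfkb1 gave 0.13 and 0.26, none past the threshold.

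**Figure D3:**
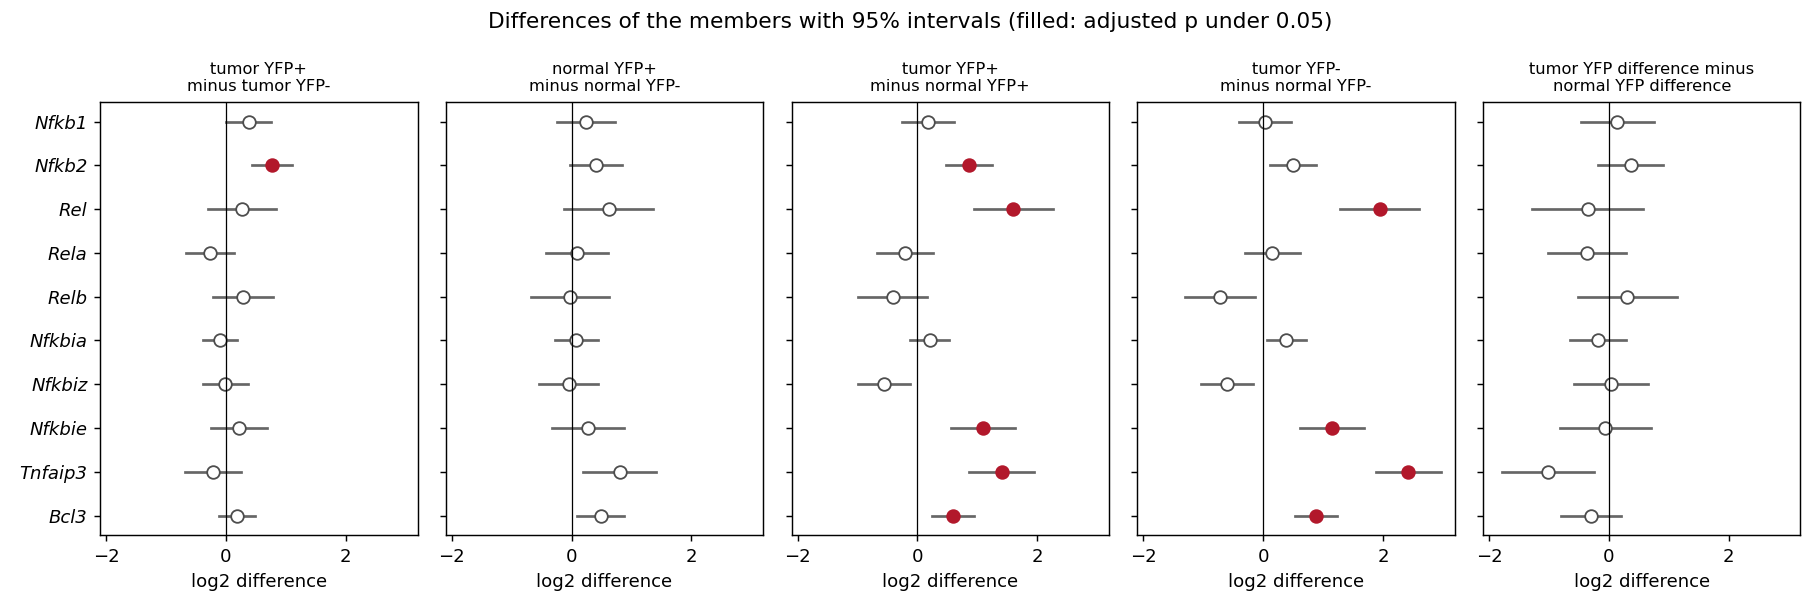
Log2 differences of the 10 members (points) with 95% intervals (lines) in the 4 comparisons and the interaction, on 1 common x axis. Filled red points passed the adjusted p threshold of 0.05: 1 in the tumor YFP comparison, 5 and 4 between tissues in YFP+ and YFP- cells, and 0 in the other panels.

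Within tumors the comparison of YFP+ with YFP- cells asks how macrophages with and without a history of Flt3 expression differ. Nfkb2 was the single member called, with a 1.71-fold higher level in YFP+ cells (0.77 ± 0.16 on the log2 scale, SE, limma adjusted p = 0.0134), with no overlap of the 5 YFP+ and 5 YFP- arrays. That is 1 of 10 members, where 2.39% of all genes were called (0.766% higher and 1.62% lower). Within the 4 slides its difference was 0.32 to 1.41. Without the samples numbered 23547 the adjusted p was 0.0871, and without 23551 it was 0.0909, so that no member was called. The partner subunit Relb differed by 0.29 (95% interval -0.22 to 0.79) and Nfkb1 by 0.38 (0.0063 to 0.75, adjusted p = 0.469). The other 7 members differed by -0.27 to 0.26.

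Markers of B and plasma cells also differed between the tumor populations. In tumor YFP+ against tumor YFP- samples 4 of the 12 tested passed, all higher: Mzb1, a chaperone of antibody secretion (2.76 ± 0.40), Tnfrsf17, a survival receptor of plasma cells (2.80 ± 0.45), Fcrla (2.85 ± 0.65) and the B cell co-activator gene Pou2af1 (2.04 ± 0.49). The summed signal of the 12 was 43.7 to 72.6 on tumor YFP+ arrays, against 10.5 to 26.0 on tumor YFP- arrays. In normal pancreas it was 6.36 to 10.5 for YFP+ cells, against 7.26 to 11.3 for YFP- cells. Nfkb2 differed there by 0.40 ± 0.20 without passing (limma adjusted p = 0.695). Of the 12 markers 0 passed in normal pancreas and 4 were above 0. Single markers moved both ways there, with Jchain at 3.44 ± 1.08, Pou2af1 at 1.51 ± 0.64 and Tnfrsf17 at -1.29 ± 0.58. The features most like Nfkb2 over the 16 arrays were a transcript listed as ENSMUST00000103457 (Pearson r = 0.916), Ccr10, a chemokine receptor gene of plasma cells (0.916), and ENSMUST00000103368 (0.900). After each group's mean was removed, these r were 0.45, 0.40 and 0.30, so the likeness lay mostly between the 4 groups. The part of B and plasma cell RNA in the Nfkb2 difference was not tested. Called lower in tumor YFP+ samples were 12 of 14 markers of fibroblasts and 7 of 11 of mast cells and basophils. So were 6 of 11 of duct cells, 4 of 12 of acinar cells and 1 of 11 of neutrophils. The neutrophil markers had a median difference of -1.02, with 0 of 11 above 0. Dendritic cell markers had 0 of 12 called, with 10 above 0 and a median difference of 0.38. T and NK cell, macrophage and endothelial markers also had 0 calls, with 7 of 11, 5 of 15 and 3 of 10 above 0.

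**Figure D4:**
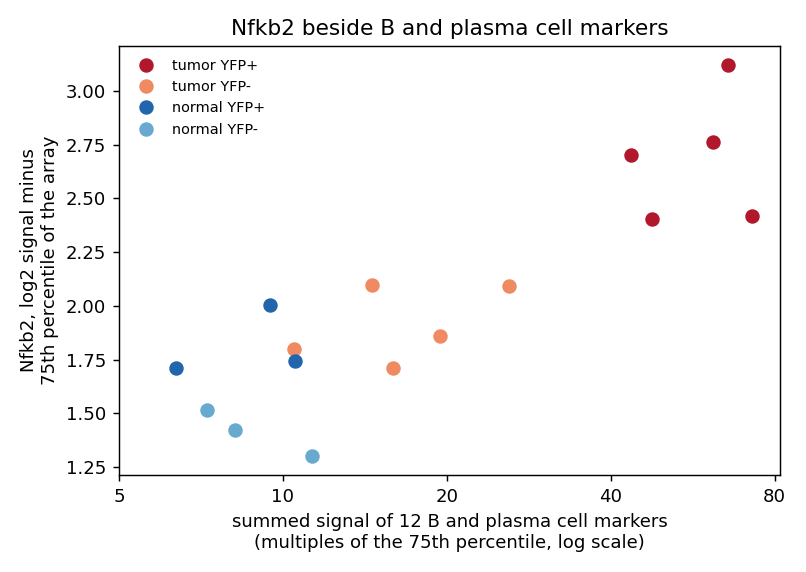
Nfkb2, as log2 signal minus the 75th percentile (y axis), against the summed signal of 12 B and plasma cell markers in multiples of the 75th percentile (x axis, log scale), 1 point per array, colored by group. The 5 tumor YFP+ arrays have both the highest Nfkb2 (2.40 to 3.12) and the highest marker sums (43.7 to 72.6).

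In normal pancreas no member passed the test between YFP+ and YFP- cells, and 0.0206% of all genes did (limma). At an unadjusted p under 0.05 there were 2 of 10 members, against 7.64% of all genes. They were Tnfaip3, at 0.58 ± 0.32 in YFP+ and -0.22 ± 0.16 in YFP- samples (SD, n = 3 each; difference 0.80, 95% interval 0.20 to 1.40, limma adjusted p = 0.424), and Bcl3, with a difference of 0.48 (0.090 to 0.88, adjusted p = 0.492). The 3 YFP+ arrays were above the 3 YFP- arrays for both genes, and also for Nfkb1, Nfkb2 and Rel. The share of all genes separated in this way is not given. The median standard error over all genes was 0.35 here, against 0.27 between the tumor populations.

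The interaction, the YFP difference in tumor minus that in normal pancreas, also had 0 members past the threshold, where 0.103% of all genes passed (limma). At an unadjusted p under 0.05 it had 1 member, Tnfaip3, against 5.97% of all genes. The YFP difference of Tnfaip3 was -0.21 ± 0.22 in tumor and 0.80 ± 0.28 in normal pancreas, and the interaction was -1.01 ± 0.36 (95% interval -1.78 to -0.25, adjusted p = 0.600). For Nfkb2 it was 0.37 ± 0.25 (-0.18 to 0.91, adjusted p = 0.921), so a larger YFP difference in tumor was not shown.

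Among the 45 pairs of members, the Pearson r over 16 arrays ran from -0.76 (Rel with Nfkbiz) to 0.96 (Rel with Bcl3), with a median of 0.19. The 6 pairs over 0.8 were those among Rel, Nfkbie, Tnfaip3 and Bcl3. After each group's mean was removed, r was 0.82 for Rel with Bcl3, 0.78 for Rel with Nfkbie and 0.77 for Nfkbie with Bcl3, and 0.32 to 0.41 for Tnfaip3 with these 3. The genes most like each over the 16 arrays were Smim3 (0.976), ENSMUST00000060989 (0.970) and Prelid3b (0.968) for Rel, and Cep43 (0.968), Gfpt1 (0.966) and the chemokine receptor gene Ccr6 (0.962) for Nfkbie. For Tnfaip3 they were the transcription factor gene Nfil3 (0.986), Sorl1 (0.974) and the feature NAP108184-1 (0.974), and for Bcl3 Prelid3b (0.962), cytochrome c gene Cycs (0.961) and the probe A_55_P2099110 (0.961). These values are descriptions, and arrays of a group share their tissue and population.

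The wider pathway was followed in lists of receptors and adaptors, activating kinases, other inhibitors and target genes. These lists were chosen with earlier results of these data known, so their shares are descriptions and support nothing. Of 35 target genes tested, 22 were higher and 2 lower in tumor YFP+ than in normal YFP+ samples, or 62.9% higher beside 6.03% of all genes. In YFP- cells 24 were higher and 2 lower, or 68.6% higher beside 8.03%. The median difference was 0.96 and 1.24. The cytokine gene Il1b rose to 4.37 ± 0.20 in tumor YFP+, against 1.29 ± 0.29 in normal YFP+ samples (8.51-fold, limma adjusted p = 2.42e-08). Il1a differed by 4.82 ± 0.32 in YFP+ and 4.67 ± 0.32 in YFP- cells, the prostaglandin synthase gene Ptgs2 by 3.12 ± 0.84 and 5.63 ± 0.84, and the acute-phase gene Saa3 by 3.48 ± 0.83 and 3.95 ± 0.83. The cytokine gene Il6 differed by 2.89 ± 0.83 in YFP+ and 4.86 ± 0.83 in YFP- cells. The sizes for these 4 depend on dim signal, since Il1a was well above background on 1 of 3 arrays of each normal group, Ptgs2 on 3 YFP+ and 1 YFP-, Saa3 on 1 and 2, and Il6 on 2 and 1.

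**Figure D5:**
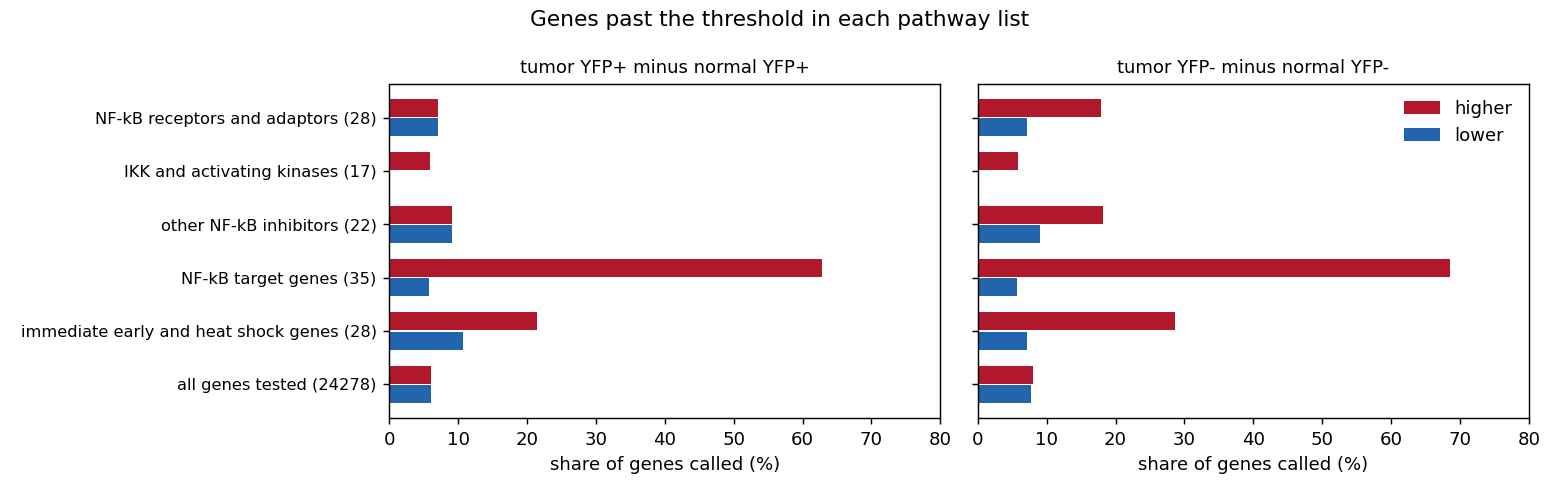
Share of genes past the threshold (x axis, percent), higher in tumor in red and lower in blue, for 5 pathway lists and all 24278 genes, with the number tested in brackets, in YFP+ cells (left) and YFP- cells (right). Target genes stand at 62.9% and 68.6% higher, against 6.03% and 8.03% of all genes. The lists were chosen with earlier results of these data known.

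Of 28 receptors and adaptors, 2 were higher and 2 lower in YFP+ cells, and 5 were higher and 2 lower in YFP- cells. In YFP+ cells this was 7.14% higher and 7.14% lower, near the 6.03% and 6.06% of all genes. In YFP- cells it was 17.9% and 7.14%, beside 8.03% and 7.74% of all genes. Malt1, a scaffold protease of antigen receptor signalling, was 4.46-fold higher in YFP+ (log2 difference 2.16 ± 0.20, limma adjusted p = 6.31e-06) and 7.40-fold higher in YFP- cells. Nod2, a sensor of bacterial cell wall, was higher by 1.21 ± 0.30 and 1.63 ± 0.30. Irak3, an inhibitor of Toll-like receptor signalling, was lower by 1.71 and 1.69 (differences -1.71 ± 0.43 and -1.69 ± 0.43). Traf5 was lower in both (-0.97 ± 0.25 in YFP+ and -0.85 ± 0.25 in YFP- cells). Traf6 was higher in YFP- cells (2.47 ± 0.67), where it was well above background on 2 of 3 normal arrays, and differed by 1.88 ± 0.67 in YFP+ cells without passing (limma adjusted p = 0.0888).

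Among 17 activating kinases and their partners, 1 was higher in each population and 0 lower. The share of 5.88% higher stood beside 6.03% of all genes in YFP+ and 8.03% in YFP- cells. The gene called was Ikbke, an IKK-related kinase, at 1.25 ± 0.25 in YFP+ (limma adjusted p = 0.00373) and 1.35 ± 0.25 in YFP- cells (adjusted p = 0.00194). Of 22 other inhibitors, 2 were higher and 2 lower in YFP+ cells, and 4 higher and 2 lower in YFP- cells. In YFP+ cells this was 9.09% higher and 9.09% lower, beside 6.03% and 6.06% of all genes. In YFP- cells it was 18.2% and 9.09%, beside 8.03% and 7.74% of all genes. The RNase gene Zc3h12a was higher by 0.83 ± 0.21 and 1.002 ± 0.21, and N4bp1 by 0.82 ± 0.19 and 0.75 ± 0.19, in YFP+ and YFP- cells in turn. The nuclear IkB gene Nfkbid was higher by 0.93 ± 0.21 in YFP- cells and differed by 0.61 ± 0.21 in YFP+ cells without passing (limma adjusted p = 0.0832). Pdlim2, which promotes degradation of RelA, was lower (-1.43 ± 0.16 and -0.95 ± 0.16), as was the interferon-induced protease gene Usp18 (-1.58 ± 0.35 and -1.35 ± 0.35).

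Immediate early and heat shock genes were listed because handling of tissue can raise them. Of 28 tested, 6 were higher and 3 lower in YFP+ cells, and 8 higher and 2 lower in YFP- cells. In YFP+ cells this was 21.4% higher and 10.7% lower, beside 6.03% and 6.06% of all genes. In YFP- cells it was 28.6% and 7.14%, beside 8.03% and 7.74% of all genes. The median difference of the list was 0.064 in YFP+ and 0.19 in YFP- cells. The genes named next had the largest called differences in each population. Nr4a2 differed by 2.72 ± 0.28 and 3.82 ± 0.28, Nr4a3 by 4.31 ± 0.46 and 6.36 ± 0.46, Maff by 5.45 ± 0.42 and 6.15 ± 0.42 and Fosl1 by 4.05 ± 0.32 and 2.21 ± 0.32. Maff was not well above background on any normal YFP- array, which makes it at least 20.2-fold higher there (adjusted p = 2.89e-07), and Fosl1 on no normal YFP+ array, at least 3.60-fold (adjusted p = 1.73e-06). The sizes given for Nr4a3 in YFP- cells, Maff in YFP+ cells and Fosl1 in YFP- cells also depend on dim signal, with 1, 1 and 2 of 3 normal arrays well above background. A bound of this kind sets the dim group at the lowest signal well above background. The part of tissue handling in the tissue differences of the members was not tested.

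Cell type markers moved between tissues as well. Acinar markers were lower in tumor (10 of 12 in YFP+, 11 of 12 in YFP- cells), with summed signals of 4.78 to 11.7 in tumor YFP+ against 288 to 437 in normal YFP+ samples, and 8.17 to 15.6 in tumor YFP- against 383 to 867 in normal YFP- samples. Neutrophil markers were higher for 5 and 7 of 11, and 0 were lower. Their sums were 35.5 to 46.7 in tumor YFP+ against 30.6 to 47.8 in normal YFP+ samples. They were 50.05 to 75.9 in tumor YFP- against 33.2 to 46.2 in normal YFP- samples. Csf3r, the brightest of the 11 in every group, weighs most in these sums and was not called (-0.19 ± 0.14 and -0.13 ± 0.14). S100a9 differed by 4.56 ± 1.12 and 7.21 ± 1.12, and was well above background on 2 of 3 arrays of each normal group. B and plasma cell markers were higher for 7 and 4 of 12, and 1 (Tnfrsf17) was lower in YFP- cells. Mast cell and basophil markers were higher for 2 and 9 of 11 and duct markers for 4 and 8 of 11. Fibroblast markers were higher for 1 and 6 of 14, with 1 lower in YFP+ cells. Of 12 dendritic cell markers 3 were higher and 2 lower in each population, of 11 T and NK cell markers 1 and 2 were lower, and of 10 endothelial markers 1 was higher in each. Of the 15 macrophage markers, 0 were higher and 2 lower in YFP+ cells, and 1 was higher and 1 lower in YFP- cells. Their part in the tissue differences of the members was not tested.

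Between YFP+ and YFP- cells the pathway lists had 0 calls in tumor (limma). At an unadjusted p under 0.05 there were 3 of 35 target genes, 1 of 28 receptors and adaptors, 2 of 17 kinases, 4 of 22 inhibitors and 3 of 28 immediate early genes, against 10.3% of all genes. The largest differences were 1.22 ± 0.59 for Tnfrsf13c (adjusted p = 0.509), 0.48 for Tbk1, -0.71 for Nlrc3, -0.88 for Saa3 and -0.67 for Fosl1. In normal pancreas Fosl1 was the single call (-2.50 ± 0.36, adjusted p = 0.0386), where it was well above background on 0 of 3 YFP+ and 2 of 3 YFP- arrays, which makes it at least 1.23-fold higher in YFP- cells. At an unadjusted p under 0.05 there were 8 of 35 target genes, 1 of 28 receptors and adaptors, 0 of 17 kinases, 1 of 22 inhibitors and 3 of 28 immediate early genes, against 7.64% of all genes. The largest other differences were 1.21 for Traf1, -0.39 for Tbk1, 0.82 for Tnip3 and 2.64 ± 0.94 for Ptgs2 (adjusted p = 0.431). The interaction had 0 calls in these lists (limma). At an unadjusted p under 0.05 it had 7 of 35 target genes, 1 of 28 receptors and adaptors, 0 of 17 kinases, 1 of 22 inhibitors and 4 of 28 immediate early genes, against 5.97% of all genes. Its largest values were -2.51 ± 1.19 for Ptgs2, -2.05 ± 0.66 for Nr4a3, 0.94 for Tnfrsf13c, 0.87 for Tbk1 and -0.49 for Tnip3.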

How the data were processed

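RNA of 16 sorted macrophage samples was read on one-color Agilent arrays, 4 on each of 4 slides. Per the labels' protocols, cells were sorted into lysis buffer, and RNA was extracted, amplified and labelled with Cy5. Per the file headers, Feature Extraction 11.5.1.1 made the deposited intensity values, whose processed red signal is background subtracted, and probe positions are on mm9. The deposited log2 values correlate at r = 0.996 or more with the processed signal of their own array and have equal distributions, and served as an alternative. How the authors made them is not given in the sources used here.

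The log2 processed signal minus each array's 75th percentile was used after outlier spots were left out. Probes well above background on at least 3 of 16 arrays and without missing values were kept, and the brightest represented a gene. Genes were tested in limma 3.58.1 (R 4.3.3), checked on simulated data, with 4 group means over all arrays and Benjamini-Hochberg adjustment over 24278 genes. Alternatives changed the normalization, background correction, filter, probe choice, block, weights and samples. Named genes were all members, up to 4 called genes with the largest difference per list and comparison (the largest 1 where none was called), and the 3 features most like each called member. The members and lists were chosen with earlier results of these data known. Since no label states that a title number is an animal, the number served as a block only in an alternative. Deviations of same-numbered samples correlated at r = -0.290 to 0.314, which cannot show whether they share a mouse. The labels do not say that the samples of a group come from separate mice. RefSeq gave gene names and promoter sequences.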

Additional observations from a re-analysis of the deposited data

How the results depend on the processing

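Each comparison was repeated under the alternatives. Of 180 alternative values for the 10 called differences of members, 168 kept the call, 12 lost it and 0 changed sign. Of the differences not called, 682 alternative values kept direction and side, 12 passed and 26 changed sign without passing. The count of members called was 0 to 1 within tumors when numbers were left out in turn (0 without 23547 and 0 without 23551), 3 to 5 between tissues in YFP+ cells (3 without 23916 and 3 without 23917), 3 to 5 in YFP- cells, and 0 to 0 in normal pancreas and for the interaction. Array weights gave 2 members in normal pancreas (Rel and Bcl3) and 7 in YFP- cells between tissues, with 1165 and 9225 calls over all genes against 5 and 3829. The cause was not tested. The title number as a replicate block gave 1 member within tumors, 5 and 4 between tissues and 0 in the other comparisons, and changed no call of a member. Over all genes it gave 599 calls within tumors, against 580, 0 in normal pancreas, against 5, and 16 for the interaction, against 25. Calls over all genes ranged over the other settings from 293 to 805 within tumors, 0 to 1165 in normal pancreas, 2560 to 4467 and 2267 to 9225 between tissues in YFP+ and YFP- cells, and 0 to 358 for the interaction. As numbers were left out they ranged from 357 to 653, 0 to 222 (222 without 23912), 1901 to 2594, against 2936, 2225 to 4572, and 8 to 42.

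Within tumors Nfkbiz gave 0.031 with normexp correction, 0.024 with the slide as a block, and -0.051 to 0.056 as numbers were left out (0.018 without 23548). In normal pancreas Rela gave -0.015 with the slide as a block and -0.090 to 0.32 as numbers were left out, and Relb gave 0.014 with the mean of its probes, 0.049 with its other probe (an alternative chosen after seeing the data) and -0.24 to 0.29 as numbers were left out. Nfkbia gave -0.11 with array weights and -0.082 to 0.17 as numbers were left out, and Nfkbiz -0.13 to 0.076. Between tissues in YFP+ cells Nfkbia gave -0.078 with quantile normalization and -0.077 with the deposited values. In YFP- cells Nfkb1 gave -0.053 and -0.048 under the same settings, -0.062 with the slide as a block and -0.075 without 23550, and Rela gave -0.017 to 0.33 as numbers were left out. For the interaction Nfkb1 gave -0.13 with its other probe, Rel 0.015 with the slide as a block, Nfkbiz -0.083 to 0.12 as numbers were left out (-0.000575 without 23550), and Nfkbie 0.20 with the slide as a block and -0.27 to 0.11 as numbers were left out (0.056 without 23551). The cause of these changes was not tested.

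Normexp correction moved the median difference of all genes to 0.057 in YFP- cells between tissues, against -0.16, and to -0.12 within tumors, against 0.0096. Calls in YFP- cells were then 62.0% higher, against 50.9%, and those of the interaction 64.0%, against 36.0%. In normal pancreas 13 of 16 calls were higher with quantile normalization, against 2 of 5. Spots at the surrogate value, 14.6% to 24.1% of an array, were kept, so the size of a difference that rests on them is uncertain. No member was among them.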
